A study of Mus musculus with 6 samples.

Results

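Splicing factors and heterogeneous nuclear ribonucleoproteins (hnRNPs) were followed in LPS-stimulated RAW 264.7 cells treated with 15(S)-HETE. The genes were taken by symbol, as those whose name begins with Srsf, Hnrnp, Sf3a, Sf3b, Snrp, Prpf, U2af or Cwc, and Hnrnpd was left out. Of 13840 genes with a probe assigned to 1 symbol, 55 were members, and 60 probes read them. There were 9 SR protein genes (Srsf), 14 hnRNP genes (Hnrnp), 6 SF3A and SF3B genes (Sf3), 9 snRNP protein genes (Snrp), 11 pre-mRNA processing factor genes (Prpf), 3 U2AF genes and 3 Cwc genes. For the 5 genes with a second probe, the probe with the highest mean log2 intensity over all samples was used, so that level was a means of choice and not a result. The genes were chosen by name, with earlier results of these data known.

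RAW 264.7 is a mouse macrophage-like cell line, LPS is the endotoxin of Gram-negative bacteria, a macrophage activator, and 15-HETE is a hydroxylated arachidonic acid product found on malaria pigment. Cells of the LPS group received 1 μg/mL LPS, and cells of the 15-HETE + LPS group received 40 μM 15(S)-HETE directly before the same LPS. RNA was taken at 24 h from 3 biological replicates per group, each a pool of 6 wells, and read on mouse genome survey arrays of 33012 probes. A group without LPS was not analysed here, so all values describe 15-HETE on top of LPS. The labels name no array batch, so a batch that followed the groups and the treatment cannot be told apart.

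Values are intensities in arbitrary units, quantile normalized by the authors, with an array median of 837 in every sample. Each log2 fold change is the treated mean minus the LPS mean, SE is its standard error, and p values come from limma, adjusted by Benjamini-Hochberg over every probe of the array. The number of arrays limits the precision, and a gene was called at an adjusted p under 0.05. Of 9 macrophage markers with a probe, 8 lay above the array median in all 6 samples, Adgre1, Cd14, Itgam and Spi1 among them. Of markers of other cells, 3 of 6 for fibroblasts, 2 of 6 for epithelial cells, 1 of 4 for lymphocytes, 1 of 6 for granulocytes and 1 of 3 for erythroid cells did so. Summed intensities of the macrophage list ran from 2904270 to 3835620 in LPS and from 4154520 to 4317390 after 15-HETE without overlap, with 1 marker, Cd86, called higher. Summed intensities of the fibroblast list ran from 22049 to 27746 in LPS and from 13121 to 15431 after 15-HETE, and those of the epithelial list from 66759 to 71365 and from 36622 to 46786. Those of the granulocyte list ran from 62401 to 187608 and from 144210 to 220196, of the lymphocyte list from 3003 to 4129 and from 2541 to 6220, and of the erythroid list from 4256 to 5957 and from 2692 to 5451. The sums mostly follow their brightest genes, Lyz2 for macrophages, Dcn for fibroblasts, Cldn4 for epithelial cells and S100a8 for granulocytes. Log2 fold changes were above and below 0 for 8 and 1 macrophage markers. They were so for 1 and 5 fibroblast, 2 and 4 epithelial and 3 and 3 granulocyte markers. The part of these markers in the results was not tested.

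Introns are removed from pre-mRNA by the spliceosome, a machine built from small nuclear RNAs with their proteins (snRNPs) and many further factors. The U1 snRNP and U2AF mark the ends of an intron, the U2 snRNP with its SF3A and SF3B subunits binds the branch point, and Prpf and Cwc proteins take part in later assembly and catalysis. SR proteins mostly promote the use of exons to which they bind, and hnRNPs coat nascent transcripts and often oppose that use. In macrophages both classes shape inflammatory gene output through alternative splicing, RNA stability and export.

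The sequences upstream of the 4 genes with a probe that passed the test are shown as reference for these members. They are the 250 bases before the RefSeq transcription start, 5′ to 3′ on the gene's strand in build GRCm38.p6. Srsf1 lies at chr11:88047123-88047372 on the plus strand, Cwc22 at chr2:77946357-77946606 on the minus strand, Prpf6 at chr2:181601069-181601318 on the plus strand and Hnrnpa3 at chr2:75659009-75659258 on the plus strand. Capitals mark matches, on either strand, to the letters GGGCGG (the GC box), to CCAAT (the CCAAT box), to CCGGAA (the ETS core), to TGACGT (the CRE core) or to ACTACAA (part of the motif bound by THAP11 and ZNF143), and 2 GC box matches of Hnrnpa3 overlap.
Srsf1: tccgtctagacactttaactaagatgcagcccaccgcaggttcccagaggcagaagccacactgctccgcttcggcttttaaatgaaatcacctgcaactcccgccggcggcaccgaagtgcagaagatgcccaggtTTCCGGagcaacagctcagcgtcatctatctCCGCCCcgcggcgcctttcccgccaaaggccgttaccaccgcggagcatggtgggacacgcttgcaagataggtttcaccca
Cwc22: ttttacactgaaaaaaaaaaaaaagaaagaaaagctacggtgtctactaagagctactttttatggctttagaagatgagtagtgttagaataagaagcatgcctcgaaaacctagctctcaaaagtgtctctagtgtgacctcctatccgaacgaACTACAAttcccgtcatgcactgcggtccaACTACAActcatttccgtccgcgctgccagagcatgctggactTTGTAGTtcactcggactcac
Prpf6: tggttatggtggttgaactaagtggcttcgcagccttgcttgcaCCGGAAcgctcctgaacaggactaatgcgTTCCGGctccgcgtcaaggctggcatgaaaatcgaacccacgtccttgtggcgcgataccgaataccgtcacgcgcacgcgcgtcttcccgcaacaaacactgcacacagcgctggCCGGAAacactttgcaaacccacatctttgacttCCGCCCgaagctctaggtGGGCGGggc
Hnrnpa3: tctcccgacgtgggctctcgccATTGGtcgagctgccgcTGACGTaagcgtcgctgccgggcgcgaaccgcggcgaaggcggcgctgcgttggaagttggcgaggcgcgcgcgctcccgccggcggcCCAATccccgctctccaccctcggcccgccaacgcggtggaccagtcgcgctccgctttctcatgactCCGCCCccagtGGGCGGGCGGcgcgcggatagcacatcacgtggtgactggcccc
Srsf1 held 1 GC box and 1 ETS core, Prpf6 held 2 and 3, and Hnrnpa3 held 3 GC boxes, 2 CCAAT boxes and 1 CRE core. Cwc22 held none of these and 3 copies of ACTACAA, and its window had a GC content of 42.8% against 58.8% for Srsf1, 58.4% for Prpf6 and 73.2% for Hnrnpa3. No window of these 4 or of the other matched members held 2 copies of AGGTCA with 1 base between, the direct repeat bound by PPAR receptors. Only 0.0335% of all 32851 windows held it, so its absence here tells nothing of these members. Of the 55 members, 48 were matched to 65 windows. A GC box was in 63.1% of them against 32.7% of all windows, CCAAT in 49.2% against 33.8%, the ETS core in 38.5% against 12%, the CRE core in 21.5% against 6.47% and ACTACAA in 6.15% against 2.81%. The median GC content was 59.6% for member windows and 52.4% for all, and a match is only a match of letters.

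Among the 55 members 3 rose after 15-HETE, the SR protein gene Srsf1, the catalytic-step factor Cwc22 and the U4/U6.U5 tri-snRNP protein gene Prpf6, and 0 fell. This is 5.45% of the members called higher, where 0.759% of all genes at their brightest probe were called higher and 0.368% lower (0.509% and 0.442% of all probes). Members chosen with earlier results known, Srsf1 and Cwc22 among them, make this count a description. At an unadjusted p under 0.05 limma found 16 higher and 7 lower, against 10.7% and 10.6% of all genes. When the prior variance of limma followed intensity (the intensity trend), 13 were called higher and 6 lower, against 5.85% and 5.33% of all genes. The methods' t-test, adjusted over the probes past their 1.8-fold rule, called 4 higher (Srsf1, Cwc22, Prpf6 and Sf3a3) and 0 lower, against 0.816% and 0.448% of all genes. At their adjusted p of 0.025 it called Cwc22 and Prpf6, and adjusted over all probes at 0.05 it called 0 on the array. In each of the 6 fits that omitted a sample, limma without the trend had 0 calls on the array, so lost calls there tell nothing of single genes. With the intensity trend in those 6 fits, 8 members passed every time, namely Srsf1, Srsf5, Hnrnph1, Hnrnpr, Sf3a3, Prpf3, Prpf6 and Cwc22, where 3.68% of all genes did so.

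The members did not move as a block. Their median log2 fold change was 0.22, and 34 of 55 (61.8%) lay above 0, where the median of all genes was 0.02 and 51.6% lay above 0. All 3 treated samples lay above all 3 LPS samples for 22 members and below them for 12, where 17.5% and 17.7% of all genes did so. Of the members 53 lay above the array median in all 6 samples, and the genes beside them were not matched for intensity. The part of brightness in these shares, and in the shares called, was not tested. By family the median was 0.14 for Srsf, 0.10 for Hnrnp, -0.10 for Sf3, 0.27 for Snrp, 0.27 for Prpf, 0.58 for U2af and 0.50 for Cwc. The median of the members dropped to 0.12 without LPS replicate 1 and without 15-HETE + LPS replicate 3, and that of the Srsf family to 0.00 and -0.15. Without 15-HETE + LPS replicate 3 the dim gene Srsf12 changed sign, from 0.42 to -0.24.

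**Figure D1:**
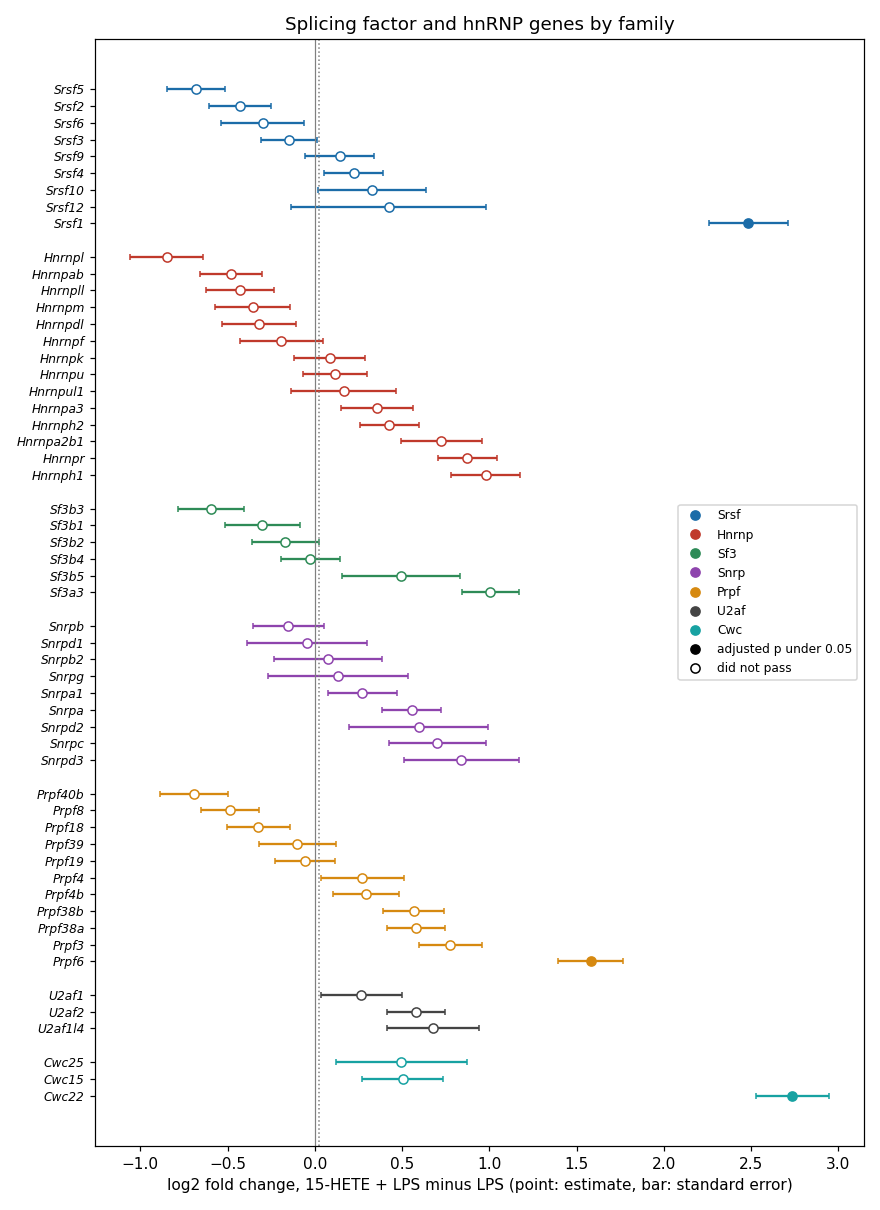
Log2 fold change (x axis, 15-HETE + LPS minus LPS) of each of the 55 genes (y axis), coloured by family, with the limma estimate as a point and its SE as a bar. Filled points are the 3 genes with an adjusted p under 0.05, and the dotted line is the median of all genes (0.02). Srsf1, Cwc22 and Prpf6 stand at 2.48, 2.74 and 1.58, and every other gene lies between -0.85 and 1.01.

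Srsf1 encodes an SR protein that promotes exon inclusion and also acts in export and translation of mRNA. Its intensity was 1525, 1092 and 997 in the LPS samples and 7150, 6189 and 6577 after 15-HETE. Every treated sample was far brighter than any LPS sample. This rise of 5.60-fold had a log2 fold change of 2.48 (SE 0.22, limma adjusted p = 0.0327), and it ran from 2.36 to 2.67 when each sample was omitted in turn.

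The other 8 SR protein genes did not share this rise. Srsf5, whose product also serves exon inclusion, had 74696, 67645 and 66337 in LPS and 44135, 42937 and 42770 after 15-HETE. The groups did not overlap (log2 fold change -0.68, SE 0.17, adjusted p = 0.105, or 0.00609 with the intensity trend). Srsf2, known as SC35, had 119263, 127861 and 108488 against 95969, 82209 and 85694, again with no overlap (-0.43, adjusted p = 0.254). Srsf6 had -0.30 (adjusted p = 0.531), and its groups overlapped.

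On the log2 scale the difference for Srsf4 was 0.22 (adjusted p = 0.511) and for Srsf3 -0.15 (adjusted p = 0.651), both without overlap. Srsf10, a splicing repressor when dephosphorylated, had 16766 in LPS replicate 1 and 31692 to 34540 in the other 5 samples, so its 0.33 was 0.00 without that replicate. Srsf12 lay below the array median in all 6 samples, with 214, 186 and 795 after 15-HETE. Its 0.42 was -0.24 without the last of these samples, and Srsf9 had 0.14. Among the SR genes 1 rose and 0 fell, and 1 and 2 had an unadjusted p under 0.05.

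No hnRNP gene was called by limma at its brightest probe, and 4 higher and 2 lower had an unadjusted p under 0.05. The same 6, 4 higher and 2 lower, passed with the intensity trend. Hnrnph1, whose protein binds G-rich RNA near splice sites, had 15343, 12413 and 11137 in LPS and 26149, 23965 and 25845 after 15-HETE. Every treated sample was above every LPS sample, with a difference of 0.98 in log2 (SE 0.20, adjusted p = 0.0759, or 0.00426 with the intensity trend). Its close paralogue Hnrnph2 had 58550, 58139 and 57258 against 84146, 70612 and 79705 (0.43, adjusted p = 0.243, or 0.0475 with the intensity trend). Whether signals of near-identical genes are shared between such probes was not tested.

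Hnrnpr, which binds and transports mRNA, had 5902, 5772 and 5212 in LPS and 10831, 10131 and 9961 after 15-HETE. The groups were far apart for their spread, 0.87 in log2 (SE 0.17, adjusted p = 0.0708, or 0.00578 with the intensity trend). Hnrnpa2b1, which packages nascent RNA, had 41332, 63669 and 64662 against 92598, 91457 and 90637. Its log2 fold change of 0.72 (adjusted p = 0.168) was 0.51 without LPS replicate 1, the lowest sample.

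Hnrnpl, a splicing regulator that binds CA-rich RNA, lay in the other direction, with 143039, 99183 and 105137 in LPS and 63918, 66121 and 60356 after 15-HETE. No sample overlapped, with a difference of -0.85 in log2 (SE 0.21, adjusted p = 0.108, or 0.00955 with the intensity trend). Its paralogue Hnrnpll, which directs splicing of the leukocyte antigen CD45 in lymphocytes, had -0.43 (adjusted p = 0.287). Hnrnpab had 79063, 80455 and 72291 against 52755, 51921 and 61743 (-0.48, adjusted p = 0.210, or 0.0361 with the intensity trend).

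Hnrnpm (-0.36) and Hnrnpdl (-0.32) did not overlap between the groups either, and neither passed a test. Hnrnpf (-0.19, or 0.02 without LPS replicate 1), Hnrnpk (0.09), Hnrnpu (0.12) and Hnrnpul1 (0.17) overlapped. In LPS replicate 1, 10 of the 14 hnRNP genes had the highest of the 3 LPS intensities, where 6545 of 13840 genes did so. The family median of 0.10 was -0.05 when LPS replicate 2 was omitted and 0.21 when LPS replicate 1 was.

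The second probe of Hnrnpa3 was called while the brightest was not. Hnrnpa3 encodes an A/B-type hnRNP that binds RNA in the nucleus and in transport granules. At its brightest probe the intensities were 105837, 155611 and 135647 in LPS and 170671, 159742 and 172213 after 15-HETE, 0.36 in log2 (SE 0.21, adjusted p = 0.398). At the other probe they were 26007, 23455 and 21639 in LPS and 116938, 116340 and 105402 after 15-HETE. That probe rose by 2.25 in log2 (SE 0.18, limma adjusted p = 0.0289).

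The log2 difference between the Hnrnpa3 probes, the other minus the brightest, was -2.02, -2.73 and -2.65 in LPS and -0.55, -0.46 and -0.71 after 15-HETE. The probes thus differed by 1.90 in their log2 fold change, with no overlap of the groups (exact permutation test, two-sided p = 0.1, the smallest that 3 samples against 3 allow, and 0.25 adjusted over 5 genes). The annotation gives the same RefSeq transcript for both and 1 further transcript for the second.

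Sf3b4 showed a like split, with 31021, 26759 and 28969 against 29144, 28653 and 27142 at its brightest probe (-0.03). At its other probe it had 1529, 1278 and 1455 against 2423, 2336 and 2791 (0.82, adjusted p = 0.0895). Its probes differed by 0.85 (exact permutation test, two-sided p = 0.1). The probes of Snrpd2 (0.60 and 0.60), Srsf10 (0.33 and 0.27) and Srsf3 (-0.15 and -0.15) had log2 fold changes within 0.06 of each other.

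**Figure D2:**
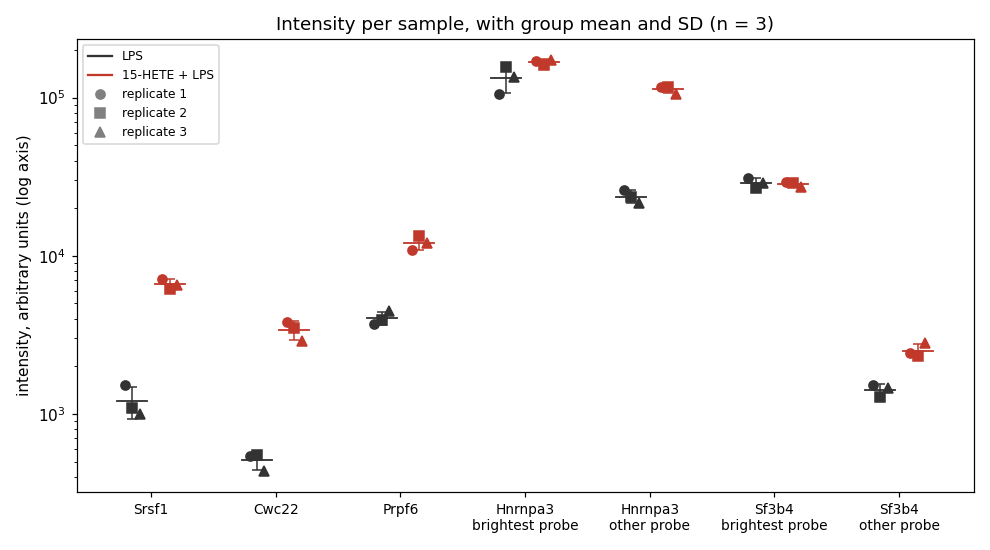
Intensity per sample on a log axis for Srsf1, Cwc22, Prpf6 and both probes of Hnrnpa3 and Sf3b4, with LPS in black, 15-HETE + LPS in red, marker shape for the replicate, and the mean and SD of each group. The treated samples lie above the LPS samples for Srsf1, Cwc22, Prpf6 and the second probes, and Sf3b4 overlaps at its brightest probe.

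SF3A and SF3B hold the U2 snRNP at the branch point. Sf3a3, a subunit of SF3A, had 18112, 16697 and 18079 in LPS and 34977, 35928 and 35196 after 15-HETE. The samples of each group lay close together and the groups far apart, 1.01 in log2 (SE 0.16, adjusted p = 0.0547, or 0.00117 with the intensity trend). It missed the threshold of limma and ran from 0.97 to 1.02 with 1 sample left out. It was called by the methods' t-test over probes past the fold rule (adjusted p = 0.0306), with an offset of 50 (0.0452), when adjusted over probes with 1 symbol (0.0460) and when only the brighter probes were tested (0.0076). The robust prior, cyclic loess, median centring, the mean of all probes of a gene and the brightest probe of the LPS samples did not call it. Neither did the t-test over all probes, the t-test past the fold rule at 0.025, limma at the study's thresholds or the replicate block without the trend.

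Sf3b3, a scaffold subunit of SF3B, had 37125, 27427 and 31624 in LPS and 20581, 21983 and 20706 after 15-HETE, all lower (-0.59, adjusted p = 0.167, or 0.0257 with the intensity trend). Sf3b1, which contacts the branch point and is a target of splicing inhibitors, had -0.30 (adjusted p = 0.484) and Sf3b2 had -0.17, and both overlapped. Sf3b5 had 49468 in LPS replicate 1 and 105061 to 122961 in the other 5 samples, and its 0.49 was 0.12 without that replicate. Of the 6 genes 0 were called in either direction, while Sf3a3 and Sf3b3 had an unadjusted p under 0.05, and both were called with the intensity trend.

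The snRNP protein genes of the Snrp family depended on 1 LPS sample. LPS replicate 1 had the lowest LPS intensity for 9 of 9 genes, where it was lowest for 32.5% of all genes. It lay below the mean of the other 2 LPS samples by over 0.5 on the log2 scale for 6 of 9, where 17.1% of all genes did. The median of this shortfall was -0.98 on the log2 scale for the family and 0.10 over all genes. Genes of the granulocyte marker list, read here in a macrophage-like line, were low in the same sample, 5 of 6 by over 0.5 with a median of -0.94. Of these 6 genes only 1, S100a8, lay above the array median in all 6 samples, so the others were dim in some or all. A link between these genes and the Snrp values was not tested.

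Snrpg, a subunit of the Sm ring around each spliceosomal snRNA, had 101496 in LPS replicate 1, 265483 and 262314 in LPS replicates 2 and 3, and 210284, 201980 and 218857 after 15-HETE. Its treated samples therefore lay above 1 LPS sample and below the other 2. The log2 fold change of 0.13 was -0.33 without LPS replicate 1, and the sign also turned for Snrpb2, from 0.07 to -0.25. The Sm subunit Snrpd2 had 36787, 90402 and 97342 against 106426, 97750 and 107246 (0.60, or 0.14 without that replicate).

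Snrpd3, another Sm subunit, had 15596, 31963 and 33359 in LPS and 41889, 48653 and 46817 after 15-HETE. All treated samples were higher, and the difference of 0.84 in log2 (SE 0.33, adjusted p = 0.237) was 0.49 without LPS replicate 1. Snrpc, a U1 protein that helps to recognise the start of introns, had 18709, 33226 and 33331 against 42738, 47776 and 43641 (0.70, adjusted p = 0.237, or 0.43 without it). Snrpa, the A protein of the U1 snRNP, had 29690, 33498 and 34588 against 48875, 48077 and 46430 (0.56, adjusted p = 0.153, or 0.0163 with the intensity trend) and 0.49 without it.

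Snrpa1, a U2 protein, had 0.27, or 0.13 without LPS replicate 1. Snrpb had -0.15 and Snrpd1 -0.04, and without LPS replicate 1 these were -0.30 and -0.40. So of the 9 genes, 0 were called by limma, 3 higher and 0 lower had an unadjusted p under 0.05, and 1 higher and 0 lower passed with the intensity trend. With the intensity trend and without LPS replicate 1, 3 were higher (Snrpa, Snrpc and Snrpd3) and 4 lower (Snrpb, Snrpb2, Snrpd1 and Snrpg), in a fit that called 12.6% of all genes higher and 9.17% lower. The family median of 0.27 was then 0.13.

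**Figure D3:**
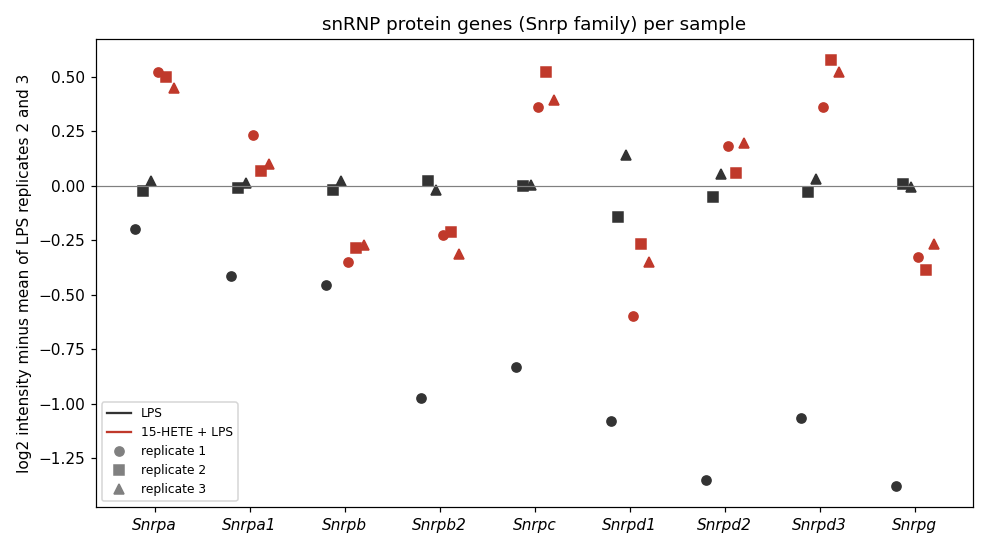
Log2 intensity of each sample minus the mean of LPS replicates 2 and 3 (y axis) for the 9 Snrp genes (x axis), with LPS in black, 15-HETE + LPS in red and marker shape for the replicate. LPS replicate 1 (black circles) is the lowest sample for every gene, down to -1.38 for Snrpg, and the treated samples lie above 0 for 5 genes and below it for 4.

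Prpf6 encodes a protein that bridges the U5 and U4/U6 snRNPs in the tri-snRNP. It had 3680, 3947 and 4460 in LPS and 10881, 13316 and 11976 after 15-HETE, so every treated sample was well above any LPS sample. It rose by 1.58 in log2 (SE 0.18, limma adjusted p = 0.0368), 2.99-fold, and ran from 1.51 to 1.66 with 1 sample left out.

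Its partners in the tri-snRNP did not all go with it. Prpf3, a U4/U6 protein, had 8396, 7511 and 6928 in LPS and 14032, 12059 and 12960 after 15-HETE, higher in every treated sample (0.78, adjusted p = 0.0975, or 0.00973 with the intensity trend). Prpf8, the U5 protein at the catalytic centre of the spliceosome, had 77265, 69494 and 70248 against 48723, 54260 and 51971, lower in every treated sample (-0.49, adjusted p = 0.191, or 0.0270 with the intensity trend). Prpf4, which binds Prpf3 in the same particle, had 0.27 with overlapping groups.

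Prpf38a (0.58, adjusted p = 0.139) and Prpf38b (0.57, adjusted p = 0.159), related factors of spliceosome activation, were higher in every treated sample. Prpf40b, a U1-associated protein, had 11257, 14532 and 12778 against 8639, 6907 and 8285 (-0.69, adjusted p = 0.137), and Prpf18, a factor of the second splicing step, had -0.32 (adjusted p = 0.380). Prpf4b (0.29), Prpf39 (-0.10) and the ubiquitin ligase Prpf19 (-0.06) overlapped. Of the 11 genes 1 rose and 0 fell, and 4 higher and 2 lower passed with the intensity trend. The family median of 0.27 was 0.11 without 15-HETE + LPS replicate 1, 0.13 without LPS replicate 3 and 0.38 without LPS replicate 1.

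U2AF recognises the end of an intron. U2af2, its large subunit, had 11737, 10102 and 10668 in LPS and 16312, 16439 and 15716 after 15-HETE, with no overlap (0.58, adjusted p = 0.141, or 0.0195 with the intensity trend). U2af1l4, a relative of the small subunit, had 11568, 18328 and 20981 against 24883, 26454 and 27578 (0.68, adjusted p = 0.235), or 0.42 without LPS replicate 1. The small subunit U2af1 had 0.27, or 0.07 without that replicate, and its groups overlapped. Of these 3 genes limma called 0, and 2 higher and 0 lower had an unadjusted p under 0.05.

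Cwc22 encodes a spliceosome protein that recruits the exon junction complex factor Eif4a3. It had 543, 552 and 433 in LPS and 3816, 3504 and 2874 after 15-HETE, so it lay below the array median of 837 in all LPS samples and above it in all treated samples. It rose by 2.74 in log2 (SE 0.21, limma adjusted p = 0.0289), 6.66-fold, the highest of the 55 genes, and ran from 2.62 to 2.85 with 1 sample left out. The values carry no detection call, so how much of its LPS signal was background is unknown.

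Cwc15 and Cwc25, which also join the catalytic spliceosome, had smaller values. Cwc15 had 58224, 86471 and 93120 in LPS and 111664, 107929 and 110891 after 15-HETE, higher in every treated sample (0.50, adjusted p = 0.297), or 0.30 without LPS replicate 1. Cwc25 had 2035, 4953 and 4342 against 5989, 4642 and 4408, which overlapped, and its 0.50 was 0.10 without that replicate.

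**Figure D4:**
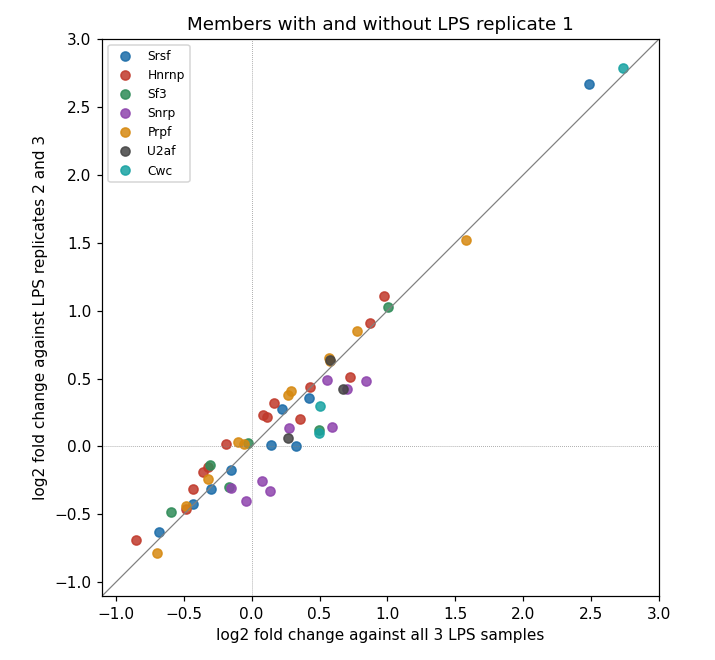
Log2 fold change of the 55 genes against all 3 LPS samples (x axis) and against LPS replicates 2 and 3 only (y axis), coloured by family, with the line of equal values. The 3 called genes lie close to the line at 2.48, 2.74 and 1.58 on the x axis, and the Snrp genes lie below it, 4 of them below 0 on the y axis.

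Beyond these families, 134 of 176 other splicing genes had a probe, and 0 rose and 2 fell, Acin1 and Srrm2. Limma found 9 higher and 23 lower at an unadjusted p under 0.05, where 10.7% and 10.6% of all genes passed, and the intensity trend called 8 higher and 15 lower, where 5.85% and 5.33% did. Their median log2 fold change was -0.02, against 0.22 for the 55 members and 0.02 for all genes. All 3 treated samples lay above all LPS samples for 31 (23.1%) and below for 39 (29.1%), against 17.5% and 17.7% of all genes.

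Acin1 encodes acinus, an RS-rich protein of the exon junction complex, and had 42617, 30942 and 33132 in LPS and 10242, 10509 and 10693 after 15-HETE. It fell by 1.75 in log2 (SE 0.20, limma adjusted p = 0.0348). Srrm2, a large RS-rich protein of the spliceosome and nuclear speckles, had 139728, 116227 and 115546 against 53572, 51129 and 55386. It fell as well (-1.21, SE 0.18, adjusted p = 0.0498), and both were lower in all 3 treated samples than in any LPS sample. Both belong to the list of SR-related proteins, SR kinases and the exon junction complex, where 0 of 24 rose and 2 fell.

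The list of other U snRNP and Lsm proteins had 0 called of 27, with Zmat2, a tri-snRNP protein (1.02, adjusted p = 0.0869), and Txnl4b (0.80, adjusted p = 0.0943) at the lowest p. LPS replicate 1 was lower than the mean of the other 2 LPS samples by over 0.5 for 13 of these 27, so the shortfall of that sample was not limited to the Snrp genes. The Prp19 complex, catalytic step and helicase list had 0 of 30, with Syf2 (0.67, adjusted p = 0.116) and Wbp11 (-0.61, adjusted p = 0.141) nearest. The list of hnRNP-like and alternative splicing regulators had 0 of 39, with Taf15 (1.04, adjusted p = 0.0711) and Rbmx (-0.89, adjusted p = 0.0742) nearest. In snRNP assembly 0 of 14 passed, with Gemin7 (-0.72, adjusted p = 0.183) and the snRNA cap methyltransferase Tgs1 (-0.57, adjusted p = 0.206) nearest. In these 4 lists limma found 3 and 3, 1 and 4, 4 and 9, and 0 and 2 genes higher and lower at an unadjusted p under 0.05, and the intensity trend called 3 and 2, 1 and 2, 3 and 5, and 0 and 1.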

How the data were processed

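The table holds 1 value per probe and sample. Intensities were deposited by the authors after chemiluminescent reading and quantile normalization, as the methods state, and the filter on S/N and flags cannot be seen in the table. Background correction is not given in the sources used here. Values were turned to log2 and every probe was fitted with limma 3.58.1 in R 4.3.3 (lmFit, eBayes with the default prior, two-sided, Benjamini-Hochberg over 33012 probes). The platform annotation named 1 gene at 14411 probes, more than 1 at 247 and no gene at 18354, and all 55 members were found in the reference by gene id with 0 symbols changed. Promoters are RefSeq sequences. The members, families, lists and the rule for named genes were chosen with earlier results of these data known.

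Named were the called members, the 3 members of each family with the lowest p in each direction, genes with probes that disagree, and the called genes and the 2 with the lowest p in each list of other splicing genes. Other members were named to account for all 55. Alternatives were other priors, the methods' t-test, normalizations, an offset of 50, a filter on dim probes, other probe rules, the replicate block, and fits that omit 1 sample. The fit was tested on a simulated array of 33012 probes in which 200 were shifted. Of shifts of 1.8-, 2.5-, 4- and 8-fold it found 0%, 0%, 20% and 46%, with 0 false calls, and the intensity trend found 8%, 16%, 42% and 70%, with 5. The simulated spread was drawn from the prior of the intensity trend, with independent noise and no outlying sample. The simulation therefore cannot say which fit suits these data better.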

Additional observations from a re-analysis of the deposited data

Results flagged for a closer look

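The second probe of Hnrnpa3 was outside the reading by the brightest probe and gave a signal above the LPS samples, with a log2 fold change of 2.25 (limma adjusted p = 0.0289), higher in 3 of 3 treated samples. The paper already lists Hnrnpa3 as raised at this probe, which gave 4.77-fold here, while the brightest probe gave 1.28-fold. Outlying samples were not searched for by a rule. LPS replicate 1 was set against the other LPS samples, and no like count was made for another sample.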

How the results depend on the processing

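Of the 55 members, 45 kept their sign in every alternative that tested them and 10 did not. Snrpb2 and Snrpg turned from 0.07 and 0.13 to -0.251 and -0.328 with adjusted p of 0.0197 and 0.00412, with the intensity trend and without LPS replicate 1, a setting chosen after seeing the data. Over the fits without 1 sample they ran from -0.251 to 0.248 and from -0.328 to 0.366. The other 8 that changed sign passed no test in the setting that turned them. Srsf1, Cwc22 and Prpf6 were the members called with the robust prior, cyclic loess, median centring and the brightest probe of the LPS samples. Median centring was all but without effect, since the table was already quantile normalized. With 1 sample left out limma called 0 members, 0 other splicing genes and 0 probes of the array in every fit.

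Members higher and lower numbered 13 and 6 with the intensity trend, against 5.85% and 5.33% of all genes. Members numbered 11 and 5 with only probes above the median intensity tested, a smaller set in which 1207 and 1589 probes passed. Shares of all genes were not computed for this set, so these counts are only a description. The methods' t-test over probes past the fold rule called 4 higher (Srsf1, Cwc22, Prpf6 and Sf3a3) and 0 lower, and 2 higher (Cwc22 and Prpf6) and 0 lower at an adjusted p of 0.025, a threshold added after seeing the data. They numbered 0 and 0 with the t-test over all probes, with the replicate block and with limma at the study's thresholds of fold and p. Other splicing genes higher and lower numbered 8 and 15 with the intensity trend and 8 and 13 with only the brighter probes. Of these, 1 was lower with the robust prior, with the t-test over probes past the fold rule and with the mean of all probes of a gene, and 1 was higher with the offset and when adjusted over probes with 1 symbol. The t-test over all probes, the t-test past the fold rule at 0.025, the replicate block and limma at the study's thresholds called 0 of them. Of all probes 1279 were higher and 1638 lower with the intensity trend, 100 and 62 with the robust prior, 269 and 256 with the offset, 1207 and 1589 with only the brighter probes, 190 and 195 with the t-test past the fold rule, 50 and 38 with it at 0.025, 0 and 0 with the t-test over all probes, the replicate block and limma at the study's thresholds, and 86 lower when adjusted over probes with 1 symbol and 92 with the mean of all probes of a gene. The Srsf median was -0.003 with only the brighter probes, a set without the dim Srsf12 (0.42). The Sf3 median was 0.114 with the mean of all probes, where the second probe of Sf3b4 (0.82) also counted. The cause of the differences in the counts was not tested.

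The replicate numbers are shared by the groups. Over all probes, deviations of same-numbered samples correlated at -0.024, 0.003 and 0.024, so no pairing was seen across the array. A shared effect on part of the genes was not tested. The replicate block called 0 probes. With the intensity trend added it called 15 members higher and 4 lower, 5 and 10 other splicing genes, and 1058 and 1266 of the 33012 probes. Shares of all genes at their brightest probe were not computed for it. This setting and the next were chosen after seeing the data. With the intensity trend and 1 sample left out, 7 to 20 members were higher and 1 to 12 lower. Other splicing genes numbered 3 to 31 and 4 to 34, and probes 535 to 2595 and 688 to 2540 of 33012. The highest counts in each case came without LPS replicate 1. Over the fits without 1 sample the median ran from 0.117 to 0.253 for all members, from -0.148 to 0.216 for Srsf, -0.046 to 0.212 for Hnrnp, -0.124 to -0.058 for Sf3, 0.133 to 0.366 for Snrp, 0.108 to 0.380 for Prpf, 0.422 to 0.599 for U2af and 0.296 to 0.741 for Cwc. Members that did not overlap between the groups then numbered 22 to 26 higher and 12 to 17 lower, in comparisons of 2 samples against 3 in which 20.8% to 25.5% and 21% to 22.8% of all genes did not overlap.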
